A study of Mus musculus with 2 samples.

Results

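Expression of 10 genes that form or serve the RANKL-OPG axis was read from single-cell RNA sequencing of mouse periodontal tissue. The genes were taken by symbol from the 31053 genes of the deposited count tables, and all 10 were found. They are the ligand RANKL (*Tnfsf11*), its receptor RANK (*Tnfrsf11a*), its decoy receptor OPG (*Tnfrsf11b*), both ligands of the CSF1 receptor (*Csf1*, *Il34*) and that receptor (*Csf1r*), the enzymes *Acp5* and *Ctsk*, the transcription factor *Nfatc1*, and *Akap11*, the protein-coding neighbor of *Tnfsf11*. 1 of the 2 libraries came from mice with ligature-induced periodontitis (LIP), taken 7 days after a ligature was placed around a tooth, and the other from untreated (control) mice. Both groups were WT C57BL/6 mice aged 8 weeks, and the cells of 5 mice were pooled in each library after the gingival mucosa was stripped and the alveolar bone surface scraped. Which mouse gave which cell is not recorded in the labels. With 1 library per condition, condition and library cannot be told apart and no test was made.

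RANKL binds RANK on cells of the monocyte and macrophage lineage and drives them to become osteoclasts, the cells that resorb bone. OPG is secreted and binds RANKL so that it cannot reach RANK. CSF1 and IL-34 signal through CSF1R and keep osteoclast precursors alive. NFATc1 is switched on by RANK and induces the genes of the mature osteoclast, among them *Acp5*, which encodes tartrate-resistant acid phosphatase, and *Ctsk*, which encodes the collagen-degrading protease cathepsin K. In periodontitis this pathway removes the alveolar bone that holds the teeth.

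Values are counts of unique molecular identifiers (UMIs), the tags that let copies of a transcript made by PCR be counted once. Of 1212 LIP barcodes, 936 cells (77.2%) were kept at 200 to 7500 genes, at most 60000 UMIs and at most 10% mitochondrial UMIs. Of 1169 control barcodes, 883 (75.5%) were kept. Together they held 10560109 LIP and 13407122 control UMIs, at medians of 5595 and 10845 per cell. The libraries shared 2 barcodes, of which 1 was kept in both. Clusters were named from marker genes that exclude all 10 genes, and “-like” marks that a class name rests on transcripts only. The bone-lineage-like cells (31 LIP and 20 control) were led by *Ibsp*, *Bglap*, *Bglap2* and *Mmp13*, and the fibroblast-like cells (26 and 92) by *Mfap4*, *Clec3b* and *Dpt*. The macrophage-like cells (77 and 41) were led by *C1qb*, *Ctss* and *Ms4a6c*, the T-like cells (27 and 51) by *Trdc*, *Cd3g* and *Cd3d*, and the neutrophil-like cells (320 and 54) by *Acod1*, *Ccl3* and *Csf3r* or by *Ltf*, *Ngp* and *Camp*. No cluster was named osteoclast. A group of 64 LIP and 58 control cells stayed unnamed. Levels are CPM, the UMIs of a gene in a class per 1000000 UMIs of that class. Intervals are exact at 95% and cover counting error only, Poisson for sums, Clopper-Pearson for shares and conditional for ratios. Where a class held 0 UMIs, 3 counts set the limit.

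*Tnfsf11* (ENSMUSG00000022015) lies at chr14:78277445-78308043 on the minus strand of GRCm38, and *Akap11* (ENSMUSG00000022016) at chr14:78492246-78536808 on the same strand. The gap between them, chr14:78308044-78492245, spans 184 kb and holds 0 other protein-coding genes in the annotation. The other positions are chr1:105780718-105847981 for *Tnfrsf11a*, chr15:54250619-54278484 for *Tnfrsf11b*, chr3:107741048-107760469 for *Csf1*, chr8:110741829-110805924 for *Il34*, chr9:22126727-22135711 for *Acp5* and chr3:95499256-95509362 for *Ctsk*.

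The promoters of *Acp5* and *Ctsk* are shown because both genes were higher in the LIP macrophage-like cells. Each is a RefSeq window of GRCm38.p6 from 250 bases before to 50 bases after an annotated start, given 5′ to 3′ on the strand of the gene. The *Acp5* window is chr9:22135697-22135996 on the minus strand, from 1 of 3 annotated starts, and the *Ctsk* window is chr3:95498960-95499259 on the plus strand. Capitals mark matches to GGAAA, the core that NFAT proteins bind, on either strand.
*Acp5*: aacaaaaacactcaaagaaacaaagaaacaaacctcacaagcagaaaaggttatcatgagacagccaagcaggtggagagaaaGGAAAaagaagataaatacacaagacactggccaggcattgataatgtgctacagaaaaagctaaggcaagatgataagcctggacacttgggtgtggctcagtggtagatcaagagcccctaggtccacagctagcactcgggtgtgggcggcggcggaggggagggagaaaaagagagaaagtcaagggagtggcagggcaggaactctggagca
*Ctsk*: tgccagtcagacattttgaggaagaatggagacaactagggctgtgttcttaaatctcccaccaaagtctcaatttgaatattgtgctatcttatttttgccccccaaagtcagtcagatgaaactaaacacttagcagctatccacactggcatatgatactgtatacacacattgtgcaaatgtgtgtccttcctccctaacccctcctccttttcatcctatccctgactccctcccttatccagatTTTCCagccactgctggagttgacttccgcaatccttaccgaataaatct
The *Acp5* match begins 167 bases before the start. The *Ctsk* match is the reverse complement and begins at the start itself. GGAAA was found in 61.4% of 32841 promoter windows of this length, so that the match sets neither gene apart. The AP-1 motif TGANTCA (7.81% of windows) and the MITF M-box TCATGTG (3.77%), also searched on both strands, had 0 matches in either window.

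**Figure D1:**
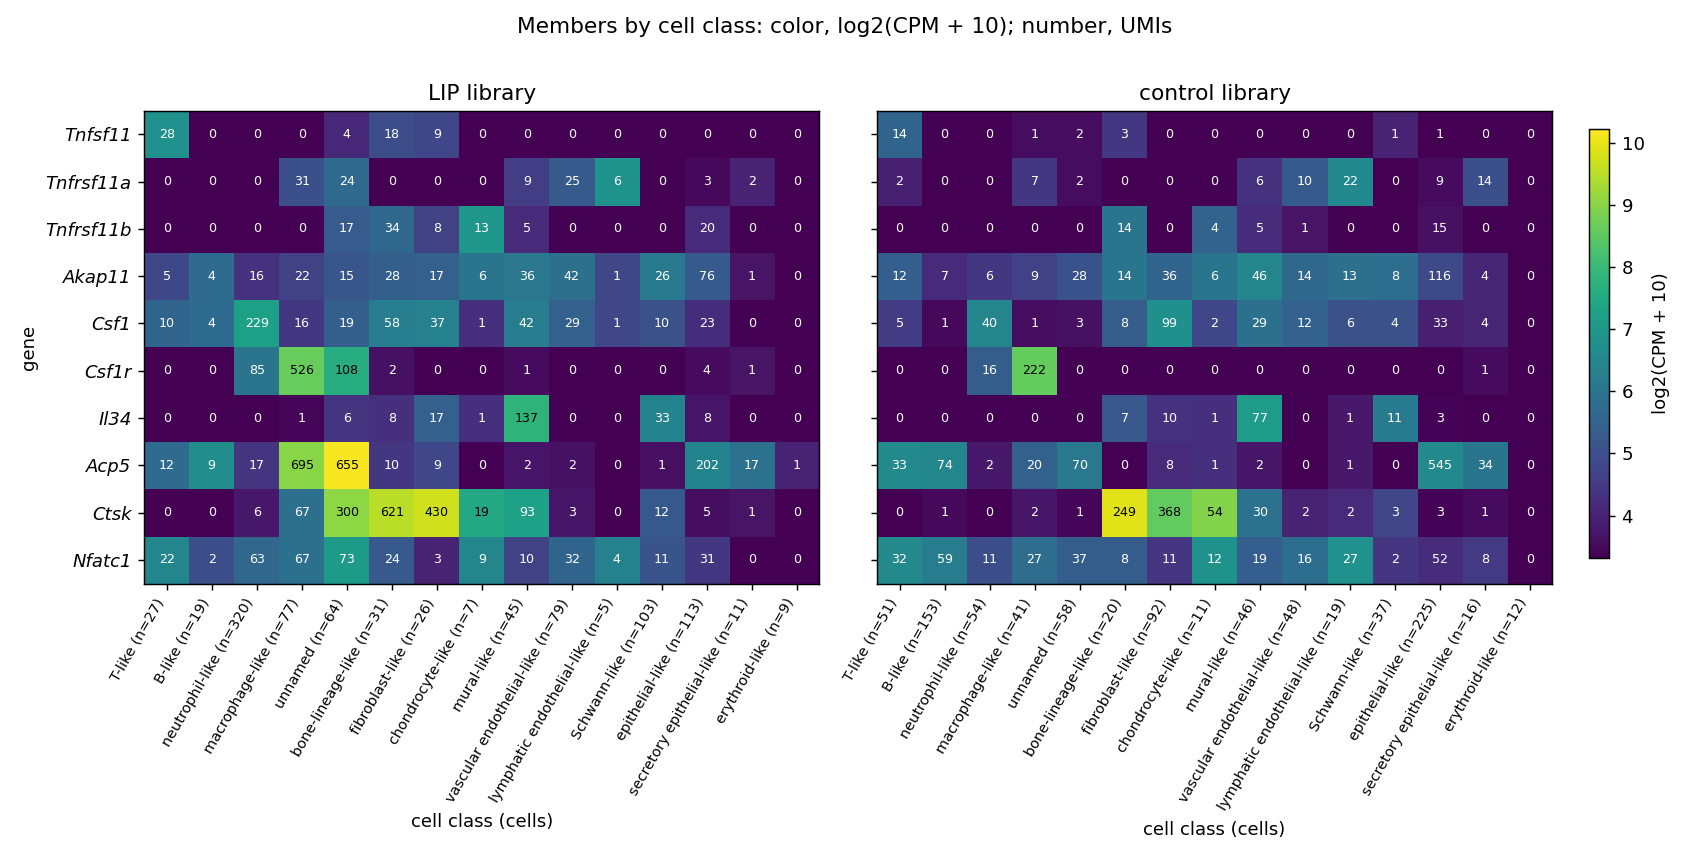
Levels of the 10 genes (rows) in each cell class (columns, with the number of cells) in the LIP library (left) and the control library (right). Color is log2(CPM + 10) and the printed number is the UMI sum. *Tnfsf11* is concentrated in T-like and bone-lineage-like cells, *Csf1r* in macrophage-like cells and *Il34* in mural-like cells in both libraries, while *Acp5* in macrophage-like cells goes from 20 UMIs in control to 695 in LIP.

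*Tnfsf11* was sparse, with 59 UMIs in 16 LIP cells and 22 UMIs in 16 control cells. In T-like cells, 28 UMIs in 8 of 27 LIP cells gave 102 CPM (67.8 to 147), and 14 UMIs in 10 of 51 control cells gave 37.0 CPM (20.2 to 62.1). The LIP level was 2.76-fold the control level, a log2 ratio of 1.46 (0.49 to 2.50), although 13 of the 28 UMIs came from 1 cell. T-like cells held 47.5% (34.3 to 60.9) of the *Tnfsf11* UMIs of the LIP library and 63.6% of those of the control library. Neutrophil-like cells held 0 UMIs in 320 LIP and 54 control cells, which allows a share of up to 0.938% and 5.56% of cells with a UMI. Their median depth was 3877.5 UMIs in LIP and 6784.5 in control, against 8437 and 6472 in T-like cells. Epithelial-like cells, at medians of 23944 and 27658 UMIs, held 0 UMIs in 113 LIP cells and 1 UMI in 225 control cells.

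The T-like cells with *Tnfsf11* differed in makeup between the libraries. Of the 8 LIP cells, 7 also held *Cd3e* (19 of all 27 did), 5 held *Il17a* (12 of 27), 4 held *Trdc* (12 of 27) and 2 held *Cd4* (4 of 27). Of the 10 control cells, 8 held *Cd3e* (39 of 51), 1 held *Il17a* (3 of 51), 1 held *Trdc* (8 of 51) and 5 held *Cd4* (18 of 51). *Il17a* encodes the cytokine IL-17A and *Trdc* a chain of the γδ T cell receptor. The makeup of all T-like cells also differed between the libraries, and these counts of few cells carry no test.

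In bone-lineage-like cells, 18 UMIs in 6 of 31 LIP cells gave 21.1 CPM (12.5 to 33.3), and 3 UMIs in 2 of 20 control cells gave 11.6 CPM (2.39 to 33.8). The log2 ratio of 0.86 had an interval from -0.91 to 3.27, so that a difference was not detectable at this depth. The 6 LIP cells held 6, 4, 4, 2, 1 and 1 UMIs. In the LIP library the T-like level was 4.84-fold the bone-lineage-like level, a log2 ratio of 2.28 (1.37 to 3.22), and in the control library the corresponding log2 ratio was 1.68 (-0.16 to 4.12). By CPM among the kept LIP cells, *Tnfsf11* was thus highest in T-like cells, where 1 cell gave 13 of the 28 UMIs. CPM is relative to depth, and the median depth was 8437 UMIs in these cells and 25670 in bone-lineage-like cells.

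In fibroblast-like cells all 9 LIP UMIs came from 1 of 26 cells, and 0 of 92 control cells held a UMI, which allows up to 3.26% of cells. Of bone-lineage markers, that LIP cell held 4 UMIs of *Sp7*, the osteoblast transcription factor, 2 of *Runx2* and 1 of *Mmp13*. It held 0 of *Bglap*, *Ibsp* and *Alpl*, and 30 of the fibroblast marker *Dcn*. Bone-lineage-like and fibroblast-like cells were also summed. The sum gave 19.7 CPM (13 to 28.7) in LIP and 2.41 CPM in control, a log2 ratio of 3.04 (1.33 to 5.40). The sum held 31 bone-lineage-like and 26 fibroblast-like cells in LIP but 20 and 92 in control, so the combined ratio joins a difference in makeup to any difference within a class. Within bone-lineage-like cells alone the ratio was the 0.86 given above.

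The 6 bone-lineage-like LIP cells with *Tnfsf11* all held *Osmr*, the receptor of oncostatin M, which 18 of all 31 cells did. Of these 6 cells, 5 held the collagenase *Mmp13* (23 of 31) and 3 held *Tnfrsf11b*. In control, 1 of the 2 cells with *Tnfsf11* held *Osmr* (8 of 20). The 6 LIP cells had a median of 29380.5 UMIs against 25587 in the bone-lineage-like cells without *Tnfsf11*, and deeper cells show more genes, whose part in this was not tested. An unnamed LIP cell held 4 further UMIs together with 85 of *Bglap*, 237 of *Mmp13* and 124 of *Alpl*, genes of osteoblasts. That cell held 0 of *Ibsp* and 130 of the fibroblast marker *Dcn*.

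The barcode with the most *Tnfsf11* in either library was not among the kept cells. It came from the LIP library and held 40 *Tnfsf11* UMIs. It was left out because it held 79853 UMIs. It also held 4633 UMIs of *Mmp13*, 165 of *Ibsp*, 591 of *Col1a1* and 5 of *Osmr*, and 0 of *Tnfrsf11b*. Of other bone-lineage markers it held 7 UMIs of *Runx2*, 3 of *Sp7*, 1 of *Alpl* and 0 of *Bglap*. Of fibroblast markers it held 527 of *Dcn* and 0 of *Dpt*. Its mitochondrial share was 2.60% and its doublet score of 0.0749 was not in the top 5% of scores. With this barcode counted, the LIP bone-lineage-like level became 62.0 CPM (47.1 to 80.2), the log2 ratio to control 2.42 (0.80 to 4.74), and the T-like share of the library's *Tnfsf11* UMIs 28.3%. The interval of that level then overlapped the T-like interval of 67.8 to 147 CPM. This barcode was chosen for its *Tnfsf11* count, and other barcodes over the limit on UMIs were not added to the class.

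**Figure D2:**
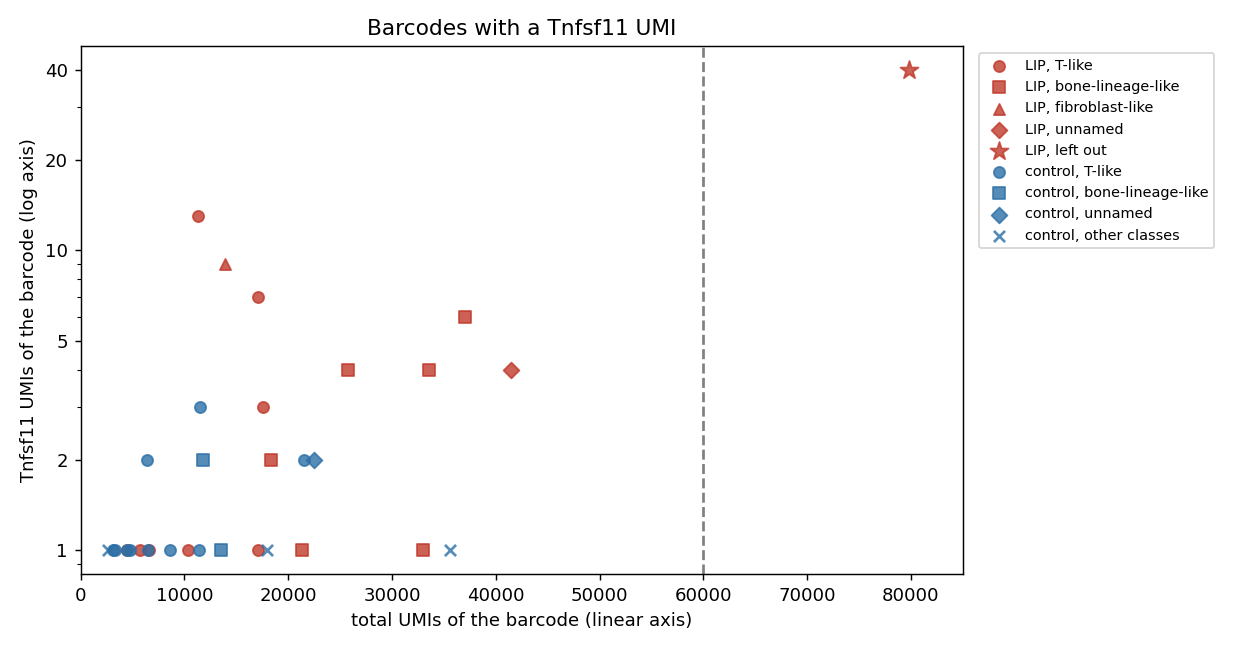
Each point is a barcode with at least 1 *Tnfsf11* UMI, by its total UMIs (linear axis) and its *Tnfsf11* UMIs (log axis), with color for the library and shape for the class. The dashed line is the limit of 60000 UMIs, and the LIP barcode beyond it holds 40 *Tnfsf11* UMIs while no kept cell exceeds 13.

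OPG transcripts (*Tnfrsf11b*, ENSMUSG00000063727) were found mainly in skeletal and epithelial classes, and T-like, B-like, neutrophil-like and macrophage-like cells of both libraries held 0 UMIs. Bone-lineage-like cells held 34 UMIs in 9 of 31 LIP cells, 39.8 CPM (27.5 to 55.6), and 14 UMIs in 4 of 20 control cells, 54.0 CPM (29.5 to 90.6). The log2 ratio was -0.44 (-1.38 to 0.57), and a difference was not detectable. In LIP 1 cell gave 11 of the 34 UMIs. In control 1 cell gave 11 of the 14, and no other cell held more than 1. That control cell had a doublet score in the top 5%, so the control level and the ratio rest largely on it. Chondrocyte-like cells reached 116 CPM (62.0 to 199) from 13 UMIs in 5 of 7 LIP cells, and 35.9 CPM from 4 UMIs in 2 of 11 control cells. In the LIP library the chondrocyte-like level was above the bone-lineage-like level by 1.55 on the log2 scale (0.50 to 2.51). Fibroblast-like cells held 8 UMIs in 2 of 26 LIP cells and 0 in 92 control cells, and 7 of the 8 came from 1 cell. Epithelial-like cells held 20 UMIs in LIP and 15 UMIs in 8 control cells. Of the 20, 17 lay in 1 cell with 515 UMIs of *Odam*, a gene of the epithelium attached to the tooth. A further 17 of the 97 LIP UMIs lay in 1 unnamed cell, whose doublet score was in the top 5%. The unnamed LIP cells were thus at 29.4 CPM.

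RANKL is set against OPG in bone biology because the pair decides how much ligand is free. In bone-lineage-like cells there were 0.529 *Tnfsf11* UMIs for each *Tnfrsf11b* UMI in LIP and 0.214 in control. The log2 difference of these ratios, LIP minus control, was 1.30 with an interval from -0.81 to 3.90. In bone-lineage-like and fibroblast-like cells together the ratios were 0.643 and 0.214, and the log2 difference was 1.58 (-0.46 to 4.14). Both intervals hold 0, so a shift of the ratio was not detectable among the kept cells. Both control ratios rest on 14 *Tnfrsf11b* UMIs, of which 1 cell with a doublet score in the top 5% gave 11. For the combined cells the difference was 2.98 (1.03 to 5.47) without the limits on UMIs and genes and 2.90 (0.92 to 5.40) with the 79853-UMI barcode counted, and -0.82 (-3.83 to 2.22) with the top 5% of doublet scores removed. The values of 2.98 and 2.90 both count that barcode, which held 40 *Tnfsf11* and 0 *Tnfrsf11b* UMIs. It was singled out for its *Tnfsf11* count, so these values are not separate evidence of a shift. UMI sums of different genes also differ in how well each transcript is captured, and the ratios are read only between the libraries.

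RANK transcripts (*Tnfrsf11a*, ENSMUSG00000026321) were most concentrated in lymphatic endothelial-like cells. They held 6 UMIs in 4 of 5 LIP cells, 107 CPM (39.4 to 234), and 22 UMIs in 12 of 19 control cells, 83.1 CPM (52.0 to 126). Vascular endothelial-like cells lay at 28.8 and 29.0 CPM, and the control lymphatic level was above the vascular level by 1.52 on the log2 scale (0.38 to 2.76). In macrophage-like cells, of the lineage that osteoclasts arise from, 31 UMIs in 24 of 77 LIP cells gave 22.5 CPM (15.3 to 31.9), and 7 UMIs in 6 of 41 control cells gave 11.8 CPM (4.76 to 24.4). Their log2 ratio was 0.92 (-0.29 to 2.35), and a difference was not detectable. Bone-lineage-like, fibroblast-like, B-like, Schwann-like and neutrophil-like cells held 0 UMIs in both libraries. Secretory epithelial-like cells held 14 UMIs in 9 of 16 control cells and 2 UMIs in 2 of 11 LIP cells.

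*Csf1* (ENSMUSG00000014599) was spread over most classes, with 479 UMIs in LIP and 247 in control. By CPM the highest LIP level was in neutrophil-like cells, with 229 UMIs in 90 of 320 cells and 142 CPM (124 to 161). In control these cells held 40 UMIs in 11 of 54 cells, 78.0 CPM (55.8 to 106), a log2 ratio of 0.86 (0.37 to 1.38). CPM is relative to depth, and the LIP median depth was 3877.5 UMIs in neutrophil-like and 25670 in bone-lineage-like cells. In LIP, 19 of 31 bone-lineage-like and 15 of 26 fibroblast-like cells held a *Csf1* UMI. Neutrophil-like cells held 47.8% of all *Csf1* UMIs of the LIP library and 16.2% of those of the control library, which also had fewer such cells. B-like control cells held 1 UMI in 153 cells (0.654%), and erythroid-like cells held 0 in both libraries.

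The neutrophil-like class was made of 2 sub-clusters, and they differed in *Csf1*. The sub-cluster led by *Acod1* and *Ccl3* held 227 UMIs in 272 LIP cells, 231 CPM (202 to 263), and 39 UMIs in 29 control cells, 314 CPM (223 to 429). The sub-cluster led by *Ltf* and *Ngp*, genes of neutrophil granules, held 2 UMIs in 48 LIP cells and 1 UMI in 25 control cells. Within the sub-cluster that carried *Csf1* the LIP level was thus not above the control level, and the 2 intervals overlapped. The class as a whole was higher in LIP while its *Acod1* sub-cluster was 272 of 320 cells there and 29 of 54 in control. At a depth thinned to 1000 UMIs per cell, with 9 LIP cells and 0 control cells too shallow, 13.8% of LIP and 13% of control neutrophil-like cells held a *Csf1* UMI, and at 2000 UMIs 19.4% (15 to 24.5) and 13.2% (5.48 to 25.3) did. Of LIP bone-lineage-like cells, 6.45% (0.79 to 21.4) did at 1000 UMIs and 25.8% (11.9 to 44.6) at 2000. Of LIP fibroblast-like cells, 3.85% (0.10 to 19.6) and 7.69% (0.95 to 25.1) did. These intervals overlapped those of the LIP neutrophil-like cells at the same depth.

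Among the stromal classes, *Csf1* in bone-lineage-like cells was 67.8 CPM (51.5 to 87.7) in LIP, from 58 UMIs of which 1 cell gave 15, and 30.8 CPM (13.3 to 60.8) in control, from 8 UMIs, a log2 ratio of 1.14 (0.06 to 2.42). Fibroblast-like cells went the other way, with 72.0 CPM in LIP and 100 CPM (81.5 to 122) in control, but the log2 ratio of -0.48 (-1.06 to 0.08) held 0. Mural-like cells lay at 65.6 and 49.1 CPM and vascular endothelial-like cells at 33.4 and 34.8 CPM. Neutrophil-like cells were above bone-lineage-like and fibroblast-like cells together by 1.03 on the log2 scale in LIP (0.68 to 1.39). The log2 ratio in control was -0.14 (-0.70 to 0.40). The summed cells differed in makeup, with 31 bone-lineage-like and 26 fibroblast-like cells in LIP and 20 and 92 in control. Over bone-lineage-like cells alone the log2 ratio was 1.06 in LIP and 1.34 (0.22 to 2.65) in control. Over fibroblast-like cells it was 0.97 in LIP, while in control fibroblast-like cells were above by 0.36 (-0.18 to 0.93). The part of makeup in the combined ratios was not tested. Macrophage-like cells held 16 UMIs in LIP and 1 UMI in control.

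*Il34* (ENSMUSG00000031750), which encodes the second ligand of CSF1R, was mainly a transcript of mural-like cells, the pericytes and smooth muscle of vessels. They held 137 UMIs in 33 of 45 LIP cells, 214 CPM (180 to 253), and 77 UMIs in 35 of 46 control cells, 130 CPM (103 to 163). This was 64.9% of the *Il34* UMIs of the LIP library and 70.0% of those of the control library, and the LIP level was higher by 0.72 on the log2 scale (0.30 to 1.14). The share of cells with a UMI was not detectably higher in LIP. Thinned to 1000 UMIs it was 15.6% (6.49 to 29.5) in LIP and 26.1% (14.3 to 41.1) in control, and at 2000 UMIs 27.3% and 26.1%. In the mural-like sub-cluster led by *Tagln* the levels were 153 CPM (114 to 201) in LIP and 73.2 CPM (49.4 to 105) in control. In that led by *Rgs5*, a pericyte gene, they were 281 CPM (225 to 347) and 260 CPM (191 to 345). The intervals of the libraries did not overlap in the *Tagln* sub-cluster and overlapped in the *Rgs5* sub-cluster, and the difference between the sub-clusters was not tested.

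Schwann-like cells ranked second for *Il34*, at 74.9 CPM in LIP and 63.2 in control, and mural-like cells were above them by 1.52 (0.96 to 2.11) and 1.04 (0.12 to 2.10) on the log2 scale. Fibroblast-like cells held 17 UMIs in LIP, 33.1 CPM, and 10 UMIs in control, 10.1 CPM, a log2 ratio of 1.71 (0.50 to 3.00), and 7 of the LIP UMIs came from 1 cell. IL-34 is known from skin as a product of keratinocytes. Here epithelial-like cells gave 3.79% of the *Il34* UMIs in LIP, 8 UMIs in 6 of 113 cells, and 2.73% in control, 3 UMIs in 2 of 225 cells. Neutrophil-like, T-like and B-like cells held 0 UMIs in both libraries.

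*Csf1r* (ENSMUSG00000024621) marked macrophage-like cells in both libraries. They held 526 UMIs in 64 of 77 LIP cells, 381 CPM (349 to 415), and 222 UMIs in 31 of 41 control cells, 376 CPM (328 to 428). The log2 ratio was 0.02 (-0.21 to 0.25), and with the top 5% of doublet scores removed it was -0.54 (-0.86 to -0.21). Neutrophil-like cells held 85 UMIs in LIP, 52.5 CPM (42 to 65), and 16 in control, 31.2 CPM (17.8 to 50.7). In their *Acod1* sub-cluster the levels were 84.4 CPM in LIP and 80.5 CPM in control. In their *Ltf* sub-cluster they were 3.16 CPM from 2 UMIs and 15.5 CPM from 6 UMIs. Of the 320 LIP cells, 20 held both *Csf1* and *Csf1r*. T-like, B-like and fibroblast-like cells and both endothelial-like classes held 0 UMIs. Macrophage-like cells gave 92.9% of the *Csf1r* UMIs of the control library but 72.4% of those of the LIP library, where 108 UMIs lay in 7 unnamed cells.

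**Figure D3:**
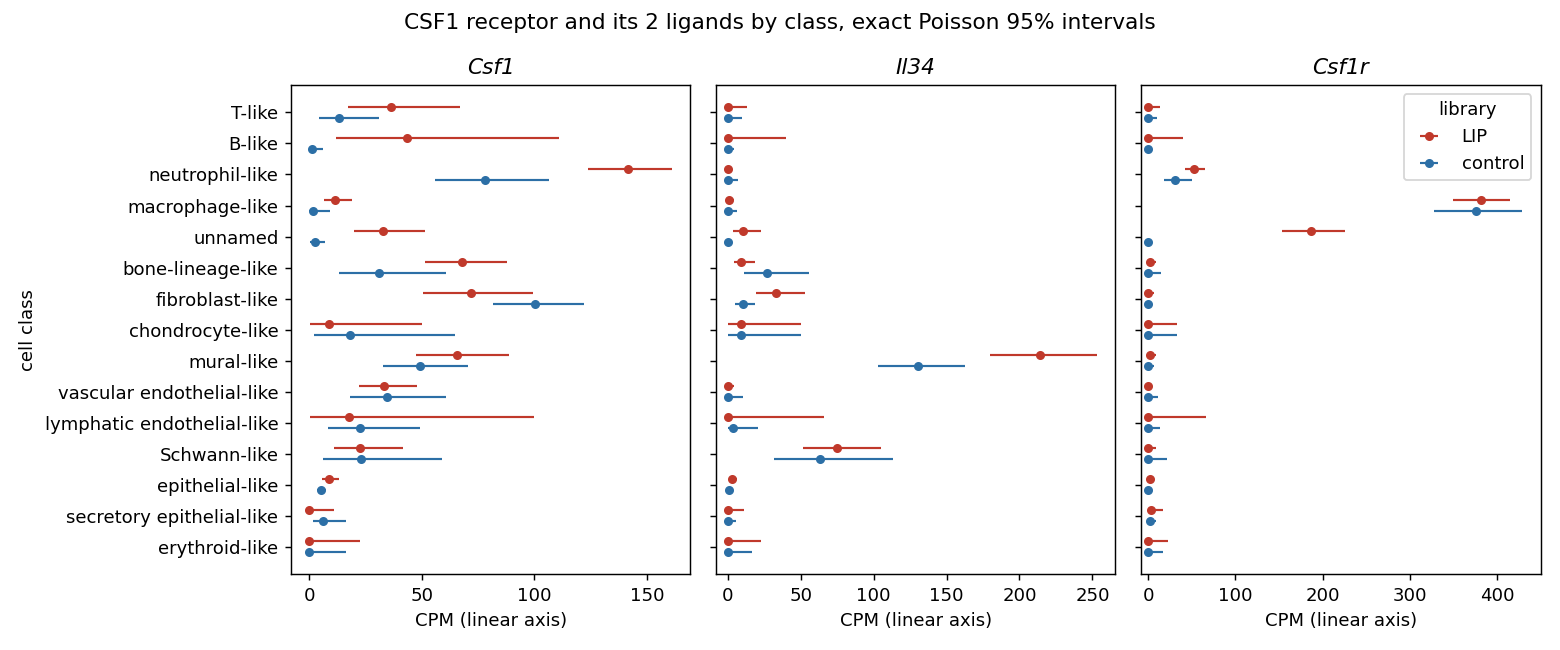
Levels of *Csf1*, *Il34* and *Csf1r* in CPM (linear axis) for each class in the LIP (red) and control (blue) library, with exact Poisson 95% intervals. *Csf1* is highest in neutrophil-like cells in LIP and in fibroblast-like cells in control, *Il34* is highest in mural-like cells in both, and *Csf1r* in macrophage-like cells is 381 CPM in LIP and 376 in control.

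*Acp5* (ENSMUSG00000001348) had, with *Ctsk*, the largest ratio between the libraries in macrophage-like cells among the 10 genes. These held 695 UMIs in 33 of 77 LIP cells, 504 CPM (467 to 543), and 20 UMIs in 8 of 41 control cells, 33.8 CPM (20.7 to 52.2). This was 14.9-fold, a log2 ratio of 3.90 (3.26 to 4.62). The LIP level was uneven. The median cell held 0 UMIs, 15 cells with at least 10 UMIs held 620 of the 695, and the top 2 cells, with 159 and 114, held 39.3%. The highest control cell held 5. With each cell weighted equally the log2 ratio was 1.03. After thinning to 1000 UMIs, which left out 1 LIP and 2 control cells, 15.8% of LIP and 2.56% of control cells held an *Acp5* UMI. Schwann-like cells, which should lack the gene, held 1 UMI in 103 LIP cells (0.971%) at a median of 3465 UMIs, against 42.9% of macrophage-like cells at a median of 15711.

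The 15 LIP macrophage-like cells with at least 10 *Acp5* UMIs, a limit chosen after the values were seen, were compared with the other 62. *Ctsk* was 131 CPM in the 15 cells and 24.4 CPM in the 62. *Atp6v0d2*, which encodes a proton pump subunit of osteoclasts, held 13 UMIs in 3 of the 15 cells and 0 in the 62 and in the 41 control cells. The fusion genes *Dcstamp* and *Ocstamp* were not higher in the 15 cells, at 31.9 CPM against 33.7 CPM and 6.39 CPM against 9.37 CPM. *Trem2*, a receptor of tissue macrophages, was 399 CPM and 94.7 CPM, *Mrc1*, another such gene, 3.19 CPM and 67.5 CPM, and *Ccr2*, a receptor of recruited monocytes, 63.9 CPM and 500 CPM. *Csf1r* was 387 and 380 CPM. *Nfatc1* was 83.1 CPM, from 26 UMIs in 10 of the 15 cells, and 38.4 CPM, from 41 UMIs in 24 of the 62. *Tnfrsf11a* was 38.3 CPM from 12 UMIs and 17.8 CPM from 19 UMIs. These values describe cells chosen by *Acp5* and carry no test.

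*Acp5* was also found in epithelial and lymphoid classes. Epithelial-like cells held 202 UMIs in 68 of 113 LIP cells, 76.8 CPM (66.6 to 88.2), and 545 UMIs in 167 of 225 control cells, 87.8 CPM (80.6 to 95.5). They gave 69.0% of the *Acp5* UMIs of the control library and 12.4% of those of the LIP library. B-like cells lay at 97.5 and 80.4 CPM. T-like cells were lower in LIP, at 43.7 CPM against 87.2 CPM, with an interval of the log2 ratio from -2.08 to -0.01. The log2 ratio of the macrophage-like to the epithelial-like level was -1.38 (-2.10 to -0.73) in control and 2.71 (2.48 to 2.95) in LIP.

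*Ctsk* (ENSMUSG00000028111), usually taken as an osteoclast gene, was highest in stromal cells here. Bone-lineage-like cells held 621 UMIs in 30 of 31 LIP cells, 726 CPM (670 to 786), and 249 UMIs in 19 of 20 control cells, 960 CPM (844 to 1087), a log2 ratio of -0.40 (-0.62 to -0.18). However, 1 control cell gave 67 of the 249 UMIs, while the highest LIP cell held 55 of 621. At a depth thinned to 1000 UMIs, 41.9% (24.5 to 60.9) of LIP and 40% (19.1 to 63.9) of control bone-lineage-like cells held a *Ctsk* UMI. A lower LIP level thus did not show in the share of cells. Fibroblast-like cells were higher in LIP, at 837 CPM (760 to 920) against 373 CPM (336 to 413), a log2 ratio of 1.17 (0.96 to 1.37). Mural-like cells were also higher, at 145 CPM from 93 UMIs against 50.8 CPM from 30 UMIs, a log2 ratio of 1.52 (0.91 to 2.16), and they were so in both sub-clusters, at 45.0 against 12.2 CPM and 255 against 138 CPM. Chondrocyte-like cells were at 170 CPM (102 to 266) in LIP and 485 CPM (364 to 633) in control, where 1 of 11 cells gave 27 of the 54 UMIs. The log2 ratio of the fibroblast-like to the bone-lineage-like level was -1.36 (-1.60 to -1.13) in control and 0.20 (0.02 to 0.38) in LIP.

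In macrophage-like cells *Ctsk* was far lower than in the stroma but differed between the libraries. There were 67 UMIs in 17 of 77 LIP cells, 48.6 CPM (37.6 to 61.7), with at most 25 in 1 cell, and 2 UMIs in 41 control cells, 3.38 CPM (0.41 to 12.2). The log2 ratio was 3.84 (1.93 to 6.92). T-like cells held 0 *Ctsk* UMIs in both libraries, and neutrophil-like cells held 6 UMIs in 320 LIP cells (1.88%). Schwann-like cells of the LIP library held 12 UMIs, 27.2 CPM, and the macrophage-like level was above theirs by 0.83 on the log2 scale with an interval from -0.06 to 1.86.

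Cells with the defining transcripts of osteoclasts were rare. The marker list of osteoclasts held 8 genes, and *Mmp9* and *Car2* were set aside for this count. Of the other 6 (*Atp6v0d2*, *Dcstamp*, *Ocstamp*, *Calcr*, *Oscar* and *Itgb3*), only 2 of all 2381 barcodes held at least 3, a rule chosen after the values were seen. Both were unnamed LIP cells. The first, with 49756 UMIs, held 403 UMIs of *Acp5*, 161 of *Ctsk*, 9 of *Tnfrsf11a*, 50 of *Csf1r*, 28 of *Nfatc1*, 122 of *Mmp9*, 43 of *Atp6v0d2*, 2 of *Dcstamp* and 1 of *Ocstamp*. The second, with 53597 UMIs, held 111 of *Acp5*, 103 of *Ctsk*, 6 of *Tnfrsf11a*, 20 of *Csf1r*, 10 of *Nfatc1*, 15 of *Atp6v0d2* and 6 of *Ocstamp*. Another unnamed LIP cell held 125 *Acp5* UMIs, 25 of *Nfatc1*, 7 of *Tnfrsf11a* and 8 of *Atp6v0d2* but 0 of *Ctsk*. All 3 held 0 UMIs of the macrophage genes *C1qa*, *C1qb* and *Mrc1* but held other genes of that marker list. In the order given, they held 32, 21 and 16 UMIs of *Cd68*, 2, 10 and 54 of *Lyz2*, and 7, 3 and 1 of *Ms4a7*. Most LIP macrophage-like cells also lacked *C1qa*, found in 4 of the 15 with at least 10 *Acp5* UMIs and 10 of the other 62. The 3 unnamed cells fell in a sub-cluster of 54 LIP and 23 control cells with a median of 1051 UMIs, which no marker list named. When the 3 cells were counted as macrophage-like, the log2 ratios of that class became 4.70 for *Acp5*, 6.01 for *Ctsk*, 0.91 (0.30 to 1.56) for *Nfatc1* and 0.12 for *Csf1r*.

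**Figure D4:**
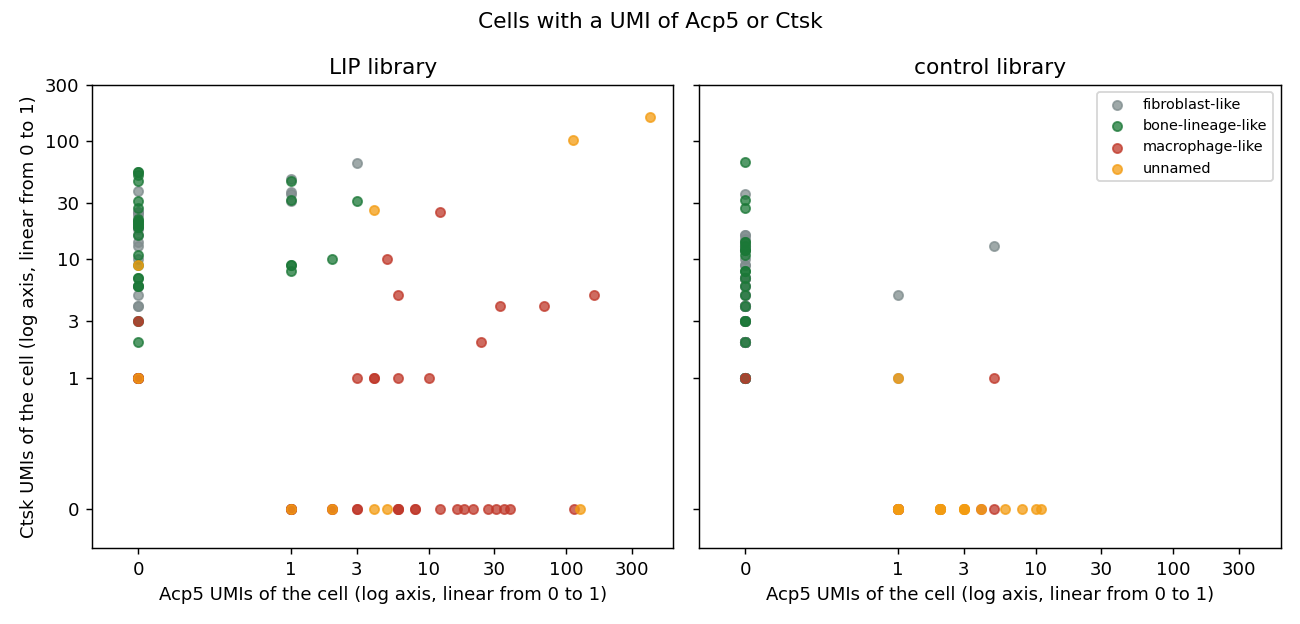
Each point is a cell with an *Acp5* or *Ctsk* UMI in 4 classes, by its *Acp5* UMIs and its *Ctsk* UMIs (log axes, linear from 0 to 1), in the LIP (left) and control (right) library. Stromal cells lie along the *Ctsk* axis in both libraries, macrophage-like cells with more than 5 *Acp5* UMIs appear in the LIP library only, and 2 unnamed LIP cells hold over 100 UMIs of both genes.

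*Nfatc1* (ENSMUSG00000033016) was found in most classes. Chondrocyte-like cells held 9 UMIs in LIP, 80.6 CPM (36.9 to 153), and 12 UMIs in control, 108 CPM (55.7 to 188). T-like cells held 80.1 CPM (50.2 to 121) in LIP and 84.6 CPM (57.8 to 119) in control. Macrophage-like cells held 67 UMIs in 34 of 77 LIP cells, 48.6 CPM (37.6 to 61.7), and 27 UMIs in 21 of 41 control cells, 45.7 CPM (30.1 to 66.5), a log2 ratio of 0.09 (-0.58 to 0.79). Lymphatic endothelial-like cells, whose valves need NFATc1, were at 71.5 CPM from 4 UMIs in LIP and 102 CPM (67.2 to 148) in control. B-like cells held 2 UMIs in 19 LIP cells, 21.7 CPM (2.62 to 78.2), and 59 UMIs in 153 control cells, 64.1 CPM (48.8 to 82.7). With the 3 unnamed cells left apart, *Nfatc1* of the whole macrophage-like class did not differ detectably between the libraries, while *Acp5* and *Ctsk* did. Within the LIP class *Nfatc1* was uneven. It was 83.1 CPM in the 15 cells with at least 10 *Acp5* UMIs and 38.4 CPM in the other 62. These cells were chosen by *Acp5*, and no test was made.

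*Akap11*, which encodes an anchoring protein of protein kinase A, was detected in 14 classes of each library, the unnamed cells included, with 295 LIP and 319 control UMIs. Its highest levels were in Schwann-like cells in LIP, at 59.0 CPM (38.5 to 86.4), and in mural-like cells in control, at 77.8 CPM (57.0 to 104). Bone-lineage-like cells were at 32.7 CPM (21.8 to 47.3) and 54.0 CPM (29.5 to 90.6), and macrophage-like cells at 15.9 and 15.2 CPM. The pattern of *Tnfsf11*, with T-like cells first, was not that of its neighbor, for which T-like cells were at 18.2 CPM in LIP and 31.7 CPM in control.

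The 10 genes were then read against all genes of each class. A gene was called where its CPM, with 10 CPM added on both sides, differed at least 2-fold and where it had at least 50 UMIs over both libraries. In macrophage-like cells 4 of the 10 genes passed this minimum and 2 were called higher in LIP (*Acp5* and *Ctsk*), where 5.61% of 4707 genes were called higher and 2.06% lower. In fibroblast-like cells 3 passed and *Ctsk* was called higher, with 2.15% of all genes called higher and 2.75% lower. In mural-like cells 4 passed and *Ctsk* was called higher, against backgrounds of 2.88% and 2.29%. None of the 2 that passed in bone-lineage-like cells (4.89% higher, 6.09% lower), the 3 in neutrophil-like cells (10.4% and 1.88%) or the 4 in epithelial-like cells (1.11% and 0.276%) was called in either direction. In neutrophil-like cells the 3 genes that passed (*Csf1*, *Csf1r* and *Nfatc1*) had a median log2 ratio of 0.64. For all genes tested it was 0.01. The *Acod1* sub-cluster was 272 of the 320 LIP cells and 29 of the 54 control cells. Within it the LIP and control levels were 231 and 314 CPM for *Csf1* and 84.4 and 80.5 CPM for *Csf1r*. For *Nfatc1* they were 40.7 CPM and 8.05 CPM, the latter from 1 UMI. The part of makeup in the median was not tested.

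**Figure D5:**
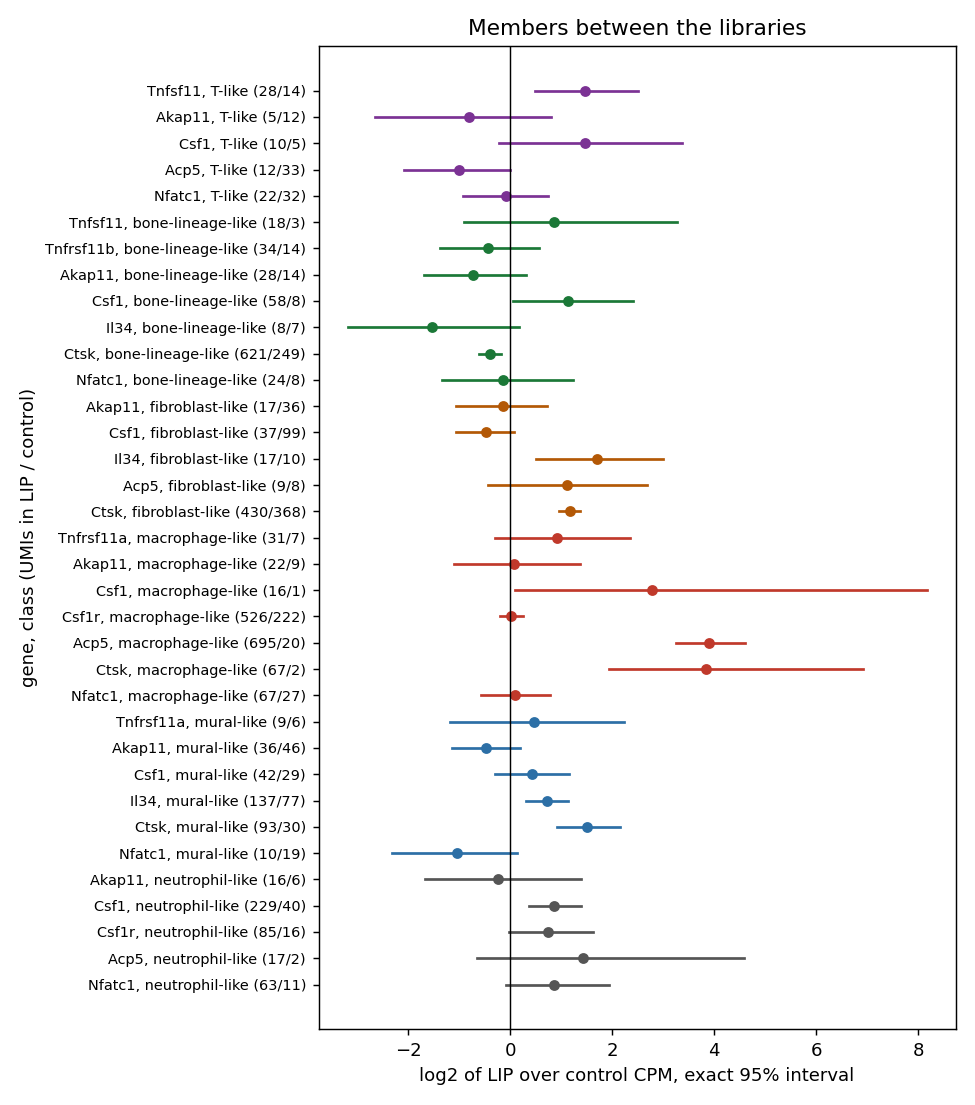
log2 ratio of LIP over control CPM (points) with the exact 95% interval of the counts (lines) for 35 pairs of gene and class with at least 15 UMIs over both libraries in T-like, bone-lineage-like, fibroblast-like, macrophage-like, mural-like and neutrophil-like cells, colored by class, with the UMIs of each library in parentheses. Epithelial-like and endothelial-like cells are not drawn. *Acp5* and *Ctsk* in macrophage-like cells have log2 ratios of 3.90 and 3.84, and *Csf1r* in the same cells 0.02.

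Other genes of the pathway were counted from 6 lists with 61 genes in all. In macrophage-like cells 37 passed the minimum, and 5 were called higher and 1 lower, where 5.61% and 2.06% of all genes tested were. None of the 8 RANK signalling genes that passed was called. Of 8 transcription factors of the osteoclast lineage, *Prdm1*, which represses inhibitors of that lineage, was called higher, at 40.6 CPM against 6.77 CPM. Of 6 co-stimulation genes that passed, *Trem2* was called higher, at 164 against 44.0 CPM. Of 5 fusion and resorption genes, the collagenase *Mmp14* (180 against 11.8 CPM) and the integrin chain *Itgav* (75.4 against 23.7 CPM) were called higher. Of 6 receptors of RANKL-inducing signals, *Lifr*, a receptor of LIF, was called lower, with a log2 ratio of -1.39 (-2.23 to -0.56). Of 4 other ligands and receptors, *Sdc1*, a heparan sulfate proteoglycan, was called higher, at 198 against 10.1 CPM. *Mmp14* and *Itgav* also serve cells other than osteoclasts.

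In bone-lineage-like cells 16 of the 61 genes passed, 5 were called higher and 0 lower, where 4.89% and 6.09% of all genes tested were. Of 7 receptors of RANKL-inducing signals, 3 were called higher. They were *Pth1r*, the receptor of parathyroid hormone (365 against 54.0 CPM, log2 ratio 2.76, 1.99 to 3.64), *Vdr*, the vitamin D receptor (74.8 against 11.6 CPM, 2.69, 1.08 to 5.01), and *Lifr* (235 against 50.1 CPM, 2.23, 1.42 to 3.16). *Osmr* was not called, at 53.8 CPM from 46 UMIs against 42.4 CPM from 11 UMIs, a log2 ratio of 0.34 (-0.63 to 1.44), and neither was *Il6st*, the shared receptor chain of the IL-6 family, at 126 and 139 CPM. *Fos*, an immediate-early gene counted under RANK signalling, was at 826 against 96.4 CPM, and *Ptprz1*, a receptor phosphatase, at 193 against 50.1 CPM. The median log2 ratio of the 7 receptors, with 10 CPM added, was 0.28, and that of all genes tested was -0.07. The bone-lineage-like cells of the LIP library were deeper, at a median of 25670 UMIs against 12931. They also held osteoblast markers more often, *Sp7* in 17 of 31 LIP and 4 of 20 control cells and *Mmp13* in 23 of 31 and 4 of 20. The part of depth and of these markers in the ratios was not tested.

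In fibroblast-like cells 14 genes of the lists passed, with *Sdc1* (97.3 against 17.2 CPM) and *Mmp14* (545 against 241 CPM) called higher and *Il6ra* called lower. In neutrophil-like cells 23 passed, with the NF-κB subunits *Nfkb2* (85.3 against 23.4 CPM) and *Relb*, *Id2* and *Tcirg1* called higher. In mural-like cells 12 passed, with *Mmp14* called higher and *Fos* lower. Of all genes tested, 2.15% were called higher and 2.75% lower in fibroblast-like cells. The shares were 10.4% and 1.88% in neutrophil-like and 2.88% and 2.29% in mural-like cells.

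Finally, the pattern of each gene over 19 groups of class and library with at least 20 cells was set beside that of 6973 genes. This minimum left out lymphatic endothelial-like cells, where *Tnfrsf11a* was highest among the named classes, and chondrocyte-like cells, where *Tnfrsf11b* was highest in LIP. The measure was Pearson's r of log2(CPM + 10), which serves as a description, since the groups come from the same 2 libraries. *Tnfsf11* was most like *Il2rb* (0.85), *Gzma* (0.83) and *Tnfrsf9* (0.83), genes of lymphocytes. *Tnfrsf11b* was most like *Tnmd* (0.94), *Tnn* and *Fmod* (both 0.92), genes of tendon and ligament matrix, and *Tnfrsf11a* like *Slfn5* (0.90), *Cd93* (0.89) and *Rasa4* (0.89). *Il34* was most like *Arhgef17* (0.95), *Hspb2* (0.95) and *Cspg4* (0.94), *Ctsk* like *Mdk* (0.97), *Bicc1* and *Cdh11* (both 0.96), and *Csf1r* like *Adgre1*, the F4/80 antigen of macrophages, with r = 0.997. For the other genes, the highest r was 0.85 for *Csf1* (*Qsox1*), 0.85 for *Acp5* (*Pycard*), 0.88 for *Nfatc1* (*Il2rg*) and 0.92 for *Akap11* (*Marveld1*). The highest r did not follow the number of classes with a UMI. *Tnfsf11*, with UMIs in 4 LIP classes, reached 0.85, and *Ctsk*, with UMIs in 11, reached 0.97.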

How the data were processed

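Periodontal cells of 1 LIP and 1 control library were profiled with the 10x Genomics 3′ v3 chemistry. The authors used Cell Ranger (3.0 by the methods, 3.1.0 by the matrix header) with mm10 and deposited raw UMI counts of 31053 genes per barcode, without normalization or a filter on mitochondrial share. The cell limits of the study were applied. In the LIP library 73 barcodes had under 200 genes, 12 over 7500 genes, 24 over 60000 UMIs and 197 over 10% mitochondrial UMIs, and in the control library 161, 5, 14 and 196. Both libraries were integrated and clustered in Seurat 5.3.0 (R 4.3.3) at resolution 0.1, then 0.2 within clusters, from 30 dimensions of 2000 variable features, with the 10 genes and the 61 list genes (71 in all) held out. A cluster took the class with most markers among its 10 leading genes and needed 3 markers in all, each at least 2-fold higher and in 25% of its cells. Clusters with a median below 0.333 times their library's also needed a leading marker. Of the sub-clusters, 2 epithelial-like (1 of them cycling) and 1 vascular endothelial-like were named without a leading marker, and a Schwann-like sub-cluster of 24 cells was of LIP only. Scrublet called 2 LIP and 3 control doublets, which were kept.

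UMIs were summed per class and library in Python 3.11.15 (scipy 1.17.1, pandas 2.3.3). Intervals of 95% were exact, and the steps were tested on simulated data. All 10 genes are named in every class that bears on a result, and list genes by call and largest ratio. *Osmr*, *Il6st* and genes of single barcodes were added after their values were seen. The genes and lists were chosen with earlier results of these data known. Alternatives changed the cell limits, resolution, dimensions, held-out genes, integration, thinning, doublet removal, weighting, gene minimum or top cell.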

Additional observations from a re-analysis of the deposited data

Results flagged for a closer look

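Barcodes over 60000 UMIs, 24 in LIP and 14 in control, were left out of the kept cells, and the report adds 1 of them to a comparison. The genes below had a higher LIP level in these barcodes than in the control ones, and the share of all genes for which this holds was not computed. *Tnfsf11* was 15.8 CPM (11.3 to 21.6) in LIP, from 40 UMIs that all lay in the *Mmp13*-rich barcode described above, and 0 in control. *Akap11* was 32.5 CPM in LIP, from 82 UMIs in 18 barcodes, and 16.1 CPM in control, from 21 UMIs. *Csf1* was 11.9 CPM in LIP, from 30 UMIs in 8 barcodes, and 2.30 CPM in control, from 3 UMIs. *Ctsk* was 39.2 CPM in LIP, from 99 UMIs in 4 barcodes, and 6.90 CPM in control, from 9 UMIs in 1 barcode. Which classes these barcodes belong to was not tested.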

How the results depend on the processing

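Of 118 values under alternatives set at the start, gene counts and thinned shares apart, 103 moved by less than their counting interval, 15 moved by more, and no ratio whose interval excluded 0 changed sign. Among the ratios whose interval held 0, that of *Csf1r* in macrophage-like cells changed sign without the limits on UMIs and genes (-0.04), without integration (-0.14) and with doublet removal, and that of *Nfatc1* (-0.19) and the *Tnfsf11* to *Tnfrsf11b* difference with doublet removal. The *Tnfsf11* log2 ratio in bone-lineage-like and fibroblast-like cells ran from 2.71 to 4.23 and that of *Ctsk* in macrophage-like cells from 3.66 to 5.53. The combined *Tnfsf11* level moved to 11 CPM at a mitochondrial limit of 5%, 43.2 CPM without the limit on UMIs and 46.2 CPM with the 79853-UMI barcode counted. The T-like share of *Tnfsf11* became 28.3% in the last 2 settings, which both count that barcode. The epithelial-like share of *Il34* became 7.45% at a mitochondrial limit of 5% and 8.72% without the limit on UMIs. The *Tnfrsf11b* ratio of the combined cells, 1.45 in the report's setting, became 3.52 with the top 5% of doublet scores removed and 3.23 without the top cell. Both settings left out 1 control cell that held 11 of the 14 control UMIs. The combined cells also differed in makeup, with 31 bone-lineage-like and 26 fibroblast-like cells in LIP and 20 and 92 in control. In bone-lineage-like cells alone the *Tnfrsf11b* ratio was -0.44 (-1.38 to 0.57). Doublet removal also moved the difference of the *Tnfsf11* to *Tnfrsf11b* ratios to -0.82 and the *Csf1r* ratio to -0.54. The *Nfatc1* ratio became 0.84 at a mitochondrial limit of 20%, 0.85 with the held-out genes kept in the clustering and 0.91 with the 3 unnamed cells counted. The *Acp5* ratio became 4.63 with the held-out genes kept, when the unnamed cells with 403 and 125 UMIs joined the class, 4.86 with the libraries merged without integration, 4.70 with the 3 unnamed cells counted, and 1.03 with cells weighted equally, which also moved the *Csf1* ratio of neutrophil-like to stromal cells to 1.60. Other causes were not tested. At a minimum of 20 UMIs the genes called higher and lower were 297 and 420 in bone-lineage-like (151 and 188 at 50), 182 and 227 in fibroblast-like (96 and 123) and 202 and 161 in mural-like cells (108 and 86), and those called lower 187 in macrophage-like (97) and 127 in neutrophil-like cells (61), since more genes were tested. Thinning to 2000 instead of 1000 UMIs moved the LIP shares of cells with a UMI to 19.4% for *Csf1* in neutrophil-like, 46.1% (31.6%) for *Csf1r* and 27.6% (15.8%) for *Acp5* in macrophage-like and 61.3% (41.9%) for *Ctsk* in bone-lineage-like cells. Equal weighting gave no value for the shares of a library. The settings that count the 79853-UMI barcode or the 3 unnamed cells were chosen after seeing the data. No paired analysis was possible because each condition has 1 library and no result comes from a test. Sparse counts limit *Tnfsf11*, *Tnfrsf11b* and *Tnfrsf11a* most.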
